A study of Mus musculus with 24 samples.

Results

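The genes described here are 34 mouse genes of peroxisome biogenesis and metabolism, taken by symbol from a list of 34. All 34 were found among the 32544 symbols of the deposited table, and all 34 passed the filter on low values (CPM above 1 in at least 3 mice). Messenger RNA of whole inguinal mammary glands had been sequenced from 24 mice, with 3 mice in each of 8 groups. The groups were BL/6 NZB mice that were non-lactating or on lactation day 8, 14 or 21, and BL/6 C57 mice at the same 4 stages. The labels name the genotypes only in this way and give no allele, treatment, age or litter size. The name of the deposited table refers to a 1st pregnancy. Each gland is a bulk mixture of fat, ducts, milk-secreting alveoli, stroma, vessels and blood cells.

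Peroxisomes are single-membrane organelles that shorten very long chain and branched fatty acids, remove a carbon from phytanic acid, and make the early intermediates of ether lipids such as plasmalogens. Their enzymes are made in the cytosol and imported folded, by receptors that dock at the membrane and are then pulled out again, while other proteins of the peroxin family insert membrane proteins and divide the organelle. In mammary tissue peroxisomes are present both in fat cells and in the epithelium that secretes milk fat. A lower transcript level in a whole gland can come from fewer cells of a type or from less RNA per cell, and these cannot be told apart here.

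Milk protein transcripts made up 62.3% to 76.8% of counts per 1000000 (CPM) in lactating glands, apart from NZB day 21 with 18.6% to 30.9%, and 0.51% to 2.02% in non-lactating glands. All levels below are therefore CPM after 23 milk protein genes were removed and the rest rescaled to the original total, called non-milk CPM. Fold changes are on the scale of log2(non-milk CPM + 1). "Rose" and "fell" mean an adjusted p under 0.05 in limma, with Benjamini-Hochberg adjustment over the 16958 genes tested. On the CPM as deposited, the median of all tested genes at day 8 over non-lactating was -1.80 in NZB and -1.81 in C57 glands, against -0.27 and -0.28 on the non-milk scale. Directions depend on this choice for the increases. Of the members that rose over non-lactating glands on days 8, 14 and 21, 5 of 7, 6 of 7 and 0 of 4 were negative as deposited in NZB glands, and 6 of 8, 6 of 6 and 5 of 5 in C57 glands. None of the members that fell in these 6 comparisons was positive as deposited.

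The libraries held 7.03 to 24.25 M reads (M, 1000000) per mouse. Markers of the labelled tissue were present: Adipoq, made by fat cells, was at 294.6 to 987.7 non-milk CPM in the 6 non-lactating glands, and Elf5, a factor of the secretory epithelium, was at 587.5 to 1487 in the 18 lactating glands. Several non-lactating libraries stood apart. The 2 read files of C57 non-lactating mouse 2 held 2.17 and 11.89 M reads, and its summed luminal markers were 1926 non-milk CPM, against 913.7 and 916.4 in the other C57 non-lactating mice. NZB non-lactating mice 2 and 3 held 838.6 and 2407 non-milk CPM of lymphocyte markers, against 34.1 in mouse 1, and fat cell markers summed to only 13025 in mouse 3. C57 non-lactating mouse 3 carries an NZB genotype tag under a C57 title. It was kept as C57, since Gm29216 was at 3591 non-milk CPM there and listed at 0 in all NZB mice.

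RefSeq (build GRCm38.p6) gave a promoter entry for 27 of the 34 members, from 250 bases before to 50 bases after the annotated start, and none for Abcd2, Pex19, Pxmp2, Hsd17b4, Amacr, Pex2 and Abcd4. Of the members with an entry, those with the highest and the lowest mean change over the 6 comparisons of a lactation day with non-lactating glands are shown, so that the sequences can be read beside the values. Capitals mark CCAAT, the box bound by NF-Y, and GGGCGG, the GC box bound by Sp1-type factors, on either strand. That mean was 1.57 for Pxmp4, 1.55 for Ehhadh, -2.91 for Phyh and -1.41 for Gnpat on the log2 scale of non-milk CPM described above.
Pxmp4 (chr2:154603624-154603923, minus strand): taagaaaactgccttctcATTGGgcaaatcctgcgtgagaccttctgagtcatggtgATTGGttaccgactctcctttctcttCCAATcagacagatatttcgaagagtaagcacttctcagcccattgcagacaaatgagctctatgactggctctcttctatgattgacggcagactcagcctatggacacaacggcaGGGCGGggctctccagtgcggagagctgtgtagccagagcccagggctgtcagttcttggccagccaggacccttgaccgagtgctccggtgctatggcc
Ehhadh (chr16:21787785-21788084, minus strand): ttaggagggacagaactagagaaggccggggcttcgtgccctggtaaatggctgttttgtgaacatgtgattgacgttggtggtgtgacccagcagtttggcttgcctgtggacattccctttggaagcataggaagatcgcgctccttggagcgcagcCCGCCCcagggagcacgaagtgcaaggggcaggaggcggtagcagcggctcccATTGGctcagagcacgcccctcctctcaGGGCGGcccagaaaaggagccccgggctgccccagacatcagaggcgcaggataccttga
Phyh (chr2:4918746-4919045, plus strand): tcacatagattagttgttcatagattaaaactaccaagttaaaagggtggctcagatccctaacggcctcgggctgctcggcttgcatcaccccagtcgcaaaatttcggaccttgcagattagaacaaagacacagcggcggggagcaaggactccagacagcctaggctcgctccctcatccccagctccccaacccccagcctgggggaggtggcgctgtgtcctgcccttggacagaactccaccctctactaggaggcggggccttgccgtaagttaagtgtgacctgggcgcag
Gnpat (chr8:124862783-124863082, plus strand): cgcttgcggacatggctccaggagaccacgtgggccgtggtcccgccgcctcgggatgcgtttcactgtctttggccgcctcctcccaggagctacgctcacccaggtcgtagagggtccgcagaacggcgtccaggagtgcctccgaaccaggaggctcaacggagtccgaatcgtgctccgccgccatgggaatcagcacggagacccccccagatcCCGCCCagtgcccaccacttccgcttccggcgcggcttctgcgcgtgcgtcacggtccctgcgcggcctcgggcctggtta
The Pxmp4 window held CCAAT boxes that begin at -232, -193 and -167 from the start and a GC box at -50. The Ehhadh window held a CCAAT box at -38 and GC boxes at -91 and -10. Gnpat held a GC box at -31, and Phyh held neither motif in these letters.
Over the 27 windows, 13 (48.1%) held CCAAT and 23 (85.2%) held GGGCGG, against 37.41% and 35.66% of all 32851 RefSeq promoter windows of the same length. The direct repeat AGGNCANAGGNCA, a form of the element bound by PPAR receptors, was in 0 of 27 windows and in 0.38% of all. The STAT-type motif TTCNNNGAA was in 1 window (Pex16) against 8.3% of all, and the E box CACGTG in 1 (Gnpat) against 7.15%. Both strands were searched and a base could count toward more than 1 motif. These matches describe letters in a window and say nothing of binding. All 34 members passed the filter on low values, whereas the 32851 windows were not limited to the 16958 genes that did. The shares among the tested genes alone were not counted.

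Lactation moved peroxisome genes in both directions. Abcd2 and Phyh fell furthest, by 4.58 and 4.08 log2 units on day 8 in C57 glands. On day 8 Pxmp4, Ehhadh and Abcd3 rose most on the non-milk scale, and on NZB day 14 Agps rose most, by 2.64. On day 8, 7 members rose and 14 fell in NZB glands, where 12.4% of all tested genes rose and 25.0% fell. In C57 glands 8 members rose and 17 fell, where 14.9% of all genes rose and 33.7% fell. On day 14, 7 members rose and 13 fell in NZB glands (12.6% and 21.6% of all genes), and 6 rose and 15 fell in C57 glands (14.8% and 24.2%). On day 21, 4 rose and 7 fell in NZB glands (12.6% and 10.1%), and 5 rose and 15 fell in C57 glands (13.6% and 23.2%). The medians over the 34 members at days 8, 14 and 21 over non-lactating were -0.29, -0.14 and -0.17 in NZB glands and -0.35, -0.41 and -0.46 in C57 glands. Over all genes they were -0.27, -0.30 and -0.05 in NZB glands and -0.28, -0.15 and -0.16 in C57 glands. The 3 comparisons within a genotype share the same non-lactating mice.

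Of the 34 members, 5 fell in all 6 of these comparisons (14.7%, against 6.10% of all genes): Pex6, Abcd2, Scp2, Phyh and Gnpat. Abcd3 alone rose in all 6 (2.94% of members, 4.81% of all genes), and as deposited it was negative in all but NZB day 21. A further 7 members (20.6%) passed the test in none of the 6, and the share of all genes that did so was not counted. The NZB counts were lowest without NZB non-lactating mouse 2. The members that rose and fell then numbered 3 and 8 on day 8, 4 and 7 on day 14, and 0 and 0 on day 21. Of 34 named gene results that use this group, 15 lost their call without mouse 2 and 0 turned direction. That setting leaves mice 1 and 3, whose fat cell markers summed to 35964 and 13025 non-milk CPM. The part of their spread in the lost calls was not tested. Leaving out both lymphocyte-high mice keeps only mouse 1 in the NZB non-lactating group, so counts of calls are not given for that setting. Without C57 non-lactating mouse 2 the C57 counts were 10 and 17, 8 and 16, and 7 and 16.

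**Figure D1:**
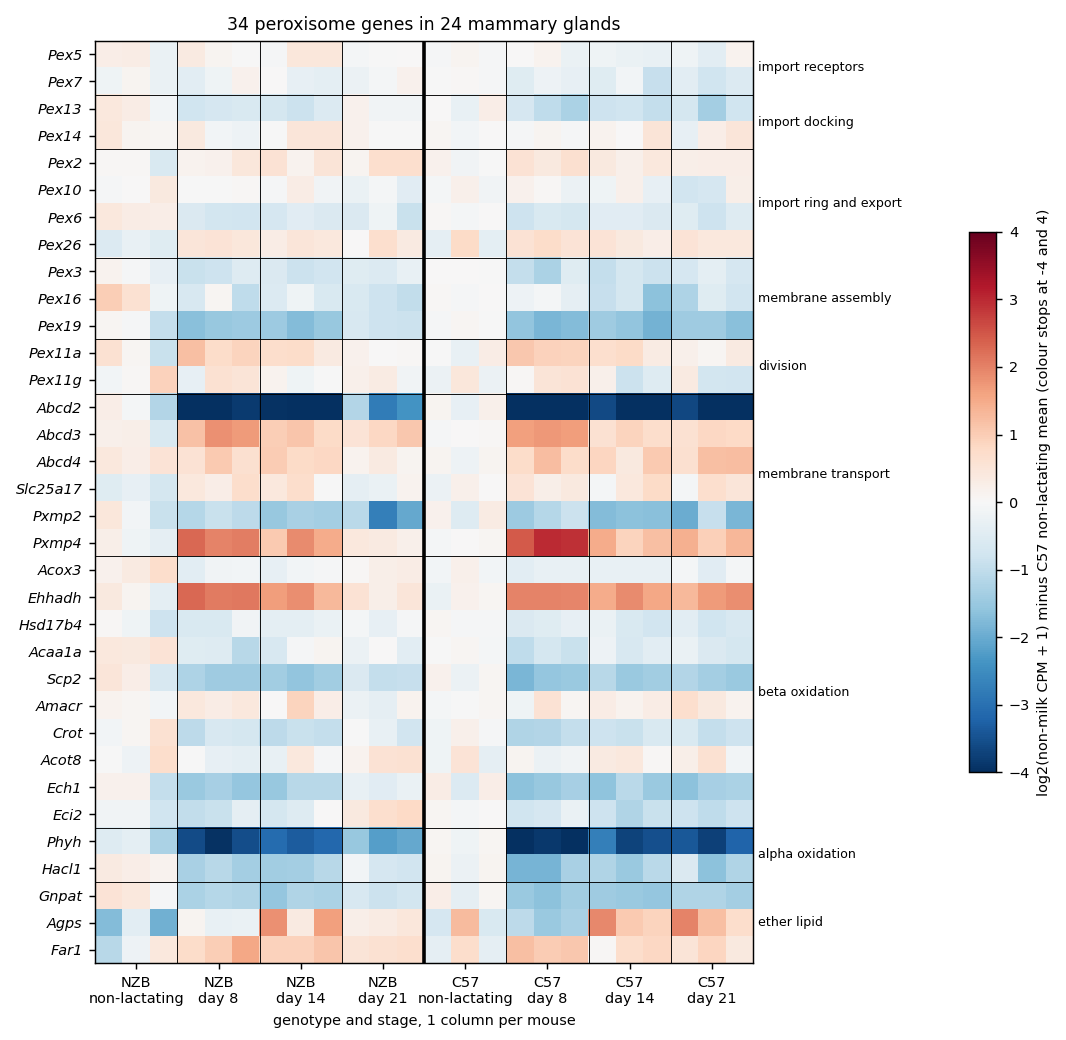
The 34 peroxisome genes (rows, grouped by role) in 24 mammary glands (columns, 3 mice per group, NZB left of C57), coloured by log2(non-milk CPM + 1) minus the mean of the C57 non-lactating mice. Abcd2 and Phyh are the darkest blue rows on days 8 and 14, and Pxmp4, Ehhadh and Abcd3 are red there. The red cells hold for the non-milk scale, and most turn negative on the CPM as deposited.

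Of the 2 import receptors and 2 docking proteins, Pex13 alone passed the test in any of the 6 lactation comparisons. Pex5, the receptor for most matrix enzymes, had group means between 34.3 ± 1.77 non-milk CPM (C57 day 14) and 50.4 ± 9.68 (NZB day 14; SD, n = 3 each). It passed the test in none of the 6 lactation comparisons, and neither did Pex7, the receptor for the rarer amino-terminal signal, Pex14, the docking protein, or Pex10, a ring ubiquitin ligase. Pex13, the partner of Pex14 at the docking site, was at 27.8, 30.2 and 31.7 non-milk CPM in the NZB mice of day 8, against 66.0, 60.3 and 45.5 in NZB non-lactating mice. In C57 mice it was at 30.5, 23.8 and 19.7 on day 8, against 49.3, 40.2 and 59.6 in non-lactating mice. The groups do not overlap in either genotype, and Pex13 fell by 0.90 (SE 0.24, adjusted p = 0.0052) in NZB and by 0.99 (SE 0.18, adjusted p = 7e-05) in C57 glands.

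Members that return the import receptors to the cytosol went opposite ways. Pex6, the ATPase that pulls the receptors out, fell in all 6 comparisons, most on NZB day 8 (-1.03) and least on C57 day 14 (-0.48). Its level was 32.9, 29.1 and 28.8 non-milk CPM in NZB mice of day 8, against 67.4, 61.6 and 59.8 in NZB non-lactating mice. Pex26, the membrane anchor of that ATPase, was at 36.8, 38.0 and 35.8 in NZB mice of day 8, against 17.3, 21.0 and 18.2 in NZB non-lactating mice. It rose by 0.94 (SE 0.28, adjusted p = 0.0099) there and by 0.62 (SE 0.20, adjusted p = 0.014) in C57 glands of day 8, where the groups overlap through C57 non-lactating mouse 2 at 44.5. As deposited these changes were -0.91 and -1.25. Pex2, another ring ligase, passed the test on C57 day 8, with a change of 0.54 (SE 0.18, adjusted p = 0.016) that was -1.26 as deposited. Its level there was 22.5, 19.7 and 23.8 against 16.8, 13.2 and 14.6 in C57 non-lactating mice, and in the other 5 comparisons its change was 0.27 to 0.65 without passing.

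Of the 3 genes that build the membrane, all 3 fell on NZB day 8 and on C57 days 14 and 21. On NZB day 14 and on C57 day 8, 2 fell, and on NZB day 21, 1 fell. Of all genes, 25.0%, 21.6% and 10.1% fell on NZB days 8, 14 and 21, and 33.7%, 24.2% and 23.2% on those C57 days. Comparisons within a genotype share their non-lactating mice. Pex19, the cytosolic chaperone that carries new membrane proteins, was the largest change among the peroxins. In NZB glands it was at 131, 119 and 63.2 non-milk CPM in non-lactating mice, 38.0, 42.5 and 44.2 on day 8, 44.5, 36.6 and 42.5 on day 14, and 79.2, 68.3 and 67.6 on day 21. In C57 glands it was at 118, 130.1 and 121 in non-lactating mice, 40.9, 33.8 and 36.7 on day 8, 45.6, 40.4 and 32.7 on day 14, and 45.8, 45.5 and 38.2 on day 21. All lactating C57 mice lie far below the non-lactating ones, while the NZB mice of day 21 overlap the NZB non-lactating group. Pex19 fell by 1.25 (SE 0.21, adjusted p = 6.6e-05) in NZB and by 1.71 (SE 0.16, adjusted p = 4.9e-09) in C57 glands of day 8. Pex3, its docking partner on the membrane, fell in 5 of the 6 comparisons, with changes of -0.57 to -0.90, and on NZB day 21 it was at -0.36 (SE 0.25, adjusted p = 0.34). Pex16, which recruits Pex3, fell in 4 of 6, and on C57 day 14 it was at 6.57, 7.79 and 3.65 against 13.8, 12.8 and 13.6 in C57 non-lactating mice.

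Pex11a, which elongates peroxisomes before they divide, was higher on day 8. It was at 60.0, 43.3 and 48.0 non-milk CPM in NZB mice of day 8, against 39.6, 27.2 and 13.4 in NZB non-lactating mice. In C57 mice it was at 54.9, 49.8 and 48.2 on day 8, against 25.2, 20.8 and 32.0 in non-lactating mice. It rose 2.001-fold (adjusted p = 0.0047) in NZB glands and by 0.96 (SE 0.20, adjusted p = 0.00026) in C57 glands on this scale, and was -0.87 and -0.93 on the CPM as deposited. Without NZB non-lactating mouse 2 the NZB change was 1.07 (adjusted p = 0.06). Without both lymphocyte-high NZB mice, which keeps only mouse 1 in the non-lactating group, it was 0.33. Pex11g, a second member of that family, passed the test in none of the 6 comparisons, with group means of 10.3 ± 4.46 to 17.6 ± 3.61.

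The transporters of the membrane split most widely. Abcd2, an ATP-driven carrier of very long chain acyl-CoA that is abundant in fat tissue, was the member with the largest change of all. NZB glands held 379, 296 and 139.8 non-milk CPM in non-lactating mice, 15.5, 14.6 and 21.4 on day 8, 19.6, 16.8 and 16.0 on day 14, and 139.7, 45.0 and 59.5 on day 21. C57 glands held 344, 251 and 363 in non-lactating mice, 11.4, 12.3 and 13.0 on day 8, 24.9, 10.9 and 13.6 on day 14, and 24.3, 11.4 and 9.98 on day 21. No lactating gland reached the lowest non-lactating gland of its genotype, but NZB day 21 mouse 1 came within 1 CPM of it. Abcd2 fell by 3.81 (SE 0.43, adjusted p = 3.8e-07) in NZB and by 4.58 (SE 0.32, adjusted p = 6.5e-11) in C57 glands of day 8, which is 14.03-fold and 23.97-fold lower than in non-lactating glands.

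Fat cell markers moved with Abcd2. Of 20 such markers 17 fell and 1 rose on day 8 in each genotype, with medians of -3.82 in NZB and -3.86 in C57 glands. The 1 that rose was Cidea, which lactating epithelium also expresses. Summed over the list, the markers were at 7808 to 9068 non-milk CPM on NZB day 8 and 13025 to 35964 in NZB non-lactating glands. They were at 6454 to 8265 on C57 day 8 and 19871 to 30985 in C57 non-lactating glands. Adipoq itself was at 17.2 to 39.4 in the 6 glands of day 8. Fibroblast markers fell as well, 9 of 10 in NZB and 10 of 10 in C57 glands, as did 7 of 10 and 10 of 10 macrophage markers, 7 of 8 endothelial markers in each genotype, and 12 of 14 lymphocyte markers in NZB and 0 of 14 in C57 glands. Of 16 luminal markers 11 rose and 1 fell on NZB day 8 (median 1.76), and 8 rose and 6 fell on C57 day 8 (median 0.51), where the medians as deposited were 0.03 and -1.32. Of 9 myoepithelial markers 8 rose in NZB (median 2.50) and 4 in C57 glands (median 0.21), with medians of 0.66 and -1.55 as deposited. The non-lactating glands differed in these markers. There 8 of 9 myoepithelial markers were lower in NZB than in C57 mice (median -1.86). Of 16 luminal markers 7 were lower and 2 higher (median -1.52). On day 8, 0 markers of either list were called between the genotypes. The part of these cells in the changes of the peroxisome genes was not tested.

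Abcd3, a related carrier (PMP70) for branched chain, bile acid and dicarboxylic acyl-CoA, went the other way. In NZB glands it was at 65.2, 66.1 and 36.7 non-milk CPM in non-lactating mice, 129, 205 and 186 on day 8, 112, 123 and 96.6 on day 14, and 82.5, 102 and 120.4 on day 21. C57 glands held 54.6 to 58.2 in non-lactating mice, 179, 192 and 183 on day 8, 86.2, 106 and 92.7 on day 14, and 87.6, 102 and 98.5 on day 21. Every lactating gland lay above every non-lactating gland. Abcd3 rose by 1.63 (SE 0.23, adjusted p = 5.5e-06) in NZB and by 1.69 (SE 0.17, adjusted p = 1.5e-08) in C57 glands of day 8, but was -0.29 and -0.27 on the CPM as deposited. It fell again in C57 glands between days, by 0.96 at day 14 over day 8 (SE 0.17, adjusted p = 0.0014). The same contrast was -0.63 (SE 0.17, adjusted p = 0.063) in NZB glands.

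Pxmp4, a small membrane protein of peroxisomes, showed the largest increase on day 8. NZB glands held 57.5, 43.5 and 37.5 non-milk CPM in non-lactating mice, 246, 196 and 206 on day 8, 102, 184 and 138 on day 14, and 65.2, 62.8 and 55.8 on day 21. C57 glands held 46.2, 49.2 and 51.3 in non-lactating mice, 271, 395 and 377 on day 8, 139, 91.0 and 113 on day 14, and 132, 95.2 and 125 on day 21. The level was highest on day 8 in both genotypes and then lower, and on day 21 the NZB mice overlap the non-lactating ones. Pxmp4 rose by 2.22 (SE 0.26, adjusted p = 5e-07) in NZB and by 2.79 (SE 0.19, adjusted p = 4.3e-11) in C57 glands of day 8, a 4.65-fold and a 6.91-fold increase. On the CPM as deposited these changes were 0.29 (adjusted p = 0.4) and 0.82 (adjusted p = 0.0022), so that the C57 increase was also called there. It fell at day 14 over day 8 in C57 glands, by 1.60 (SE 0.19, adjusted p = 2.7e-05), and was -0.64 (SE 0.19, adjusted p = 0.091) in NZB glands.

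The remaining membrane members moved less. Pxmp2, a channel for small metabolites, fell in 5 of the 6 comparisons. On C57 day 14 it was at 6.34, 6.78 and 6.60 non-milk CPM, against 26.4, 16.0 and 29.8 in C57 non-lactating mice. On NZB day 21 it was at 10.5, 2.65 and 4.91, against 32.5, 21.7 and 12.1 in NZB non-lactating mice. Abcd4, which is best known for moving vitamin B12 out of lysosomes, rose at all stages in C57 and in none in NZB glands. The C57 changes were 0.91, 0.76 and 1.03 on days 8, 14 and 21 on this scale, and -0.87, -0.85 and -0.63 as deposited. The day 14 call was lost with 9 milk genes removed (adjusted p = 0.064) and without C57 day 14 mouse 3 (0.06). In NZB glands the Abcd4 changes were 0.34, 0.46 and -0.20. Whether these changes differ between the genotypes was not tested. Abcd4 was not called between the genotypes in non-lactating glands or on days 8 and 14. Slc25a17, a carrier of cofactors such as CoA and FAD, rose on days 8 and 14 in NZB glands, by 0.96 (SE 0.29, adjusted p = 0.011) and 0.87 (SE 0.29, adjusted p = 0.024), with -0.89 for both as deposited. Both calls were lost without NZB non-lactating mouse 2 (adjusted p = 0.12 and 0.18). That of day 14 was also lost without NZB day 14 mouse 2 (0.093), with 9 milk genes removed (0.079) and without the filter (0.051).

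**Figure D2:**
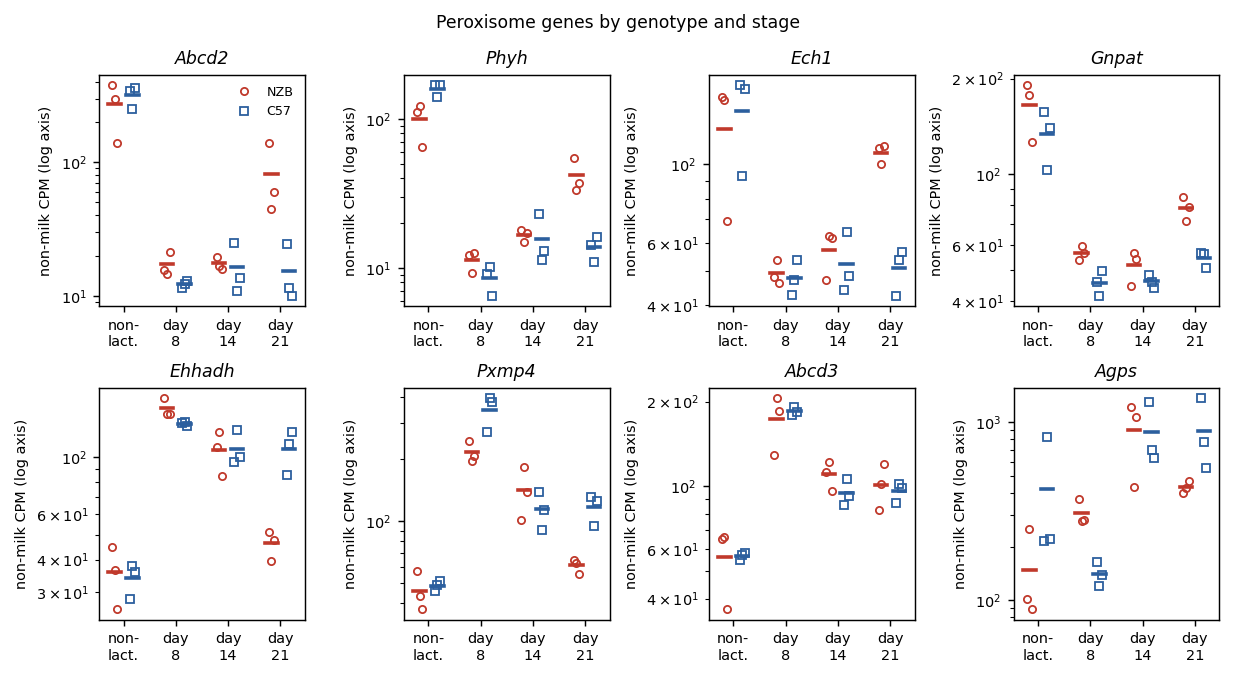
Non-milk CPM on log axes for 8 members in every mouse, by stage, with NZB as circles left of C57 as squares and a bar at each group mean (3 mice per group). Abcd2, Phyh, Ech1 and Gnpat are low in lactation and higher again on NZB day 21, while Ehhadh and Pxmp4 are high on day 8 and near the non-lactating level on NZB day 21. The lactation increases of Ehhadh, Pxmp4 and Abcd3 hold for the non-milk scale, and on the CPM as deposited they are negative except for Pxmp4 and Ehhadh on day 8 and Abcd3 on NZB day 21. Agps spreads widely within groups.

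Beta oxidation held 10 members, of which 1 rose and 5 fell on day 8 in NZB glands, and 1 rose and 7 fell in C57 glands, where 12.4% of all genes rose and 25.0% fell in NZB and 14.9% rose and 33.7% fell in C57 glands. The 1 that rose in both was Ehhadh, the bifunctional enzyme of the fatty acid chain-shortening route that PPAR alpha controls in liver. In NZB glands it was at 44.7, 36.6 and 25.7 non-milk CPM in non-lactating mice, 169, 147 and 148 on day 8, 109, 126 and 84.8 on day 14, and 51.4, 39.7 and 47.9 on day 21. In C57 glands it was at 28.1, 37.9 and 36.0 in non-lactating mice, 135, 137 and 132 on day 8, 96.0, 127 and 100.01 on day 14, and 84.8, 112 and 125 on day 21. Its C57 level stayed apart from the non-lactating mice on all 3 days, and its NZB level on days 8 and 14 only. Ehhadh rose by 2.12 (SE 0.22, adjusted p = 1.3e-07) in NZB and by 1.97 (SE 0.16, adjusted p = 1.3e-09) in C57 glands of day 8, and was 0.19 and 0.02 as deposited. Hsd17b4, the other bifunctional enzyme, which serves branched and very long chain substrates, fell in C57 glands on all 3 days, by 0.46, 0.56 and 0.61. In NZB glands it was at -0.14, -0.03 and 0.18 on those days, with adjusted p of 0.66, 0.93 and 0.63.

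Scp2, whose products are a thiolase for branched chains and a lipid carrier, fell in all 6 comparisons. On day 8 it was at 83.9, 73.6 and 73.3 non-milk CPM in NZB mice, against 275, 237 and 127 in NZB non-lactating mice. In C57 mice it was at 54.3, 66.9 and 69.6 on day 8, against 220.0, 167 and 208 in non-lactating mice. The groups do not overlap, and the changes were -1.39 (SE 0.22, adjusted p = 3.7e-05) in NZB and -1.62 (SE 0.17, adjusted p = 2.4e-08) in C57 glands. Scp2 and Podn overlap on the same strand, and how the counting treated shared reads is not given in the sources used here. Ech1, an isomerase that handles unsaturated chains, fell in 5 of 6. On day 8 it was at 48.1, 53.7 and 46.3 in NZB mice, against 155, 152 and 69.2 in NZB non-lactating mice. In C57 mice it was at 42.7, 47.0 and 53.6, against 167, 92.5 and 164 in non-lactating mice. Crot, which passes shortened chains on to carnitine for export, also fell in 5 of 6, by 1.16 in NZB glands of day 14 and by 1.11 in C57 glands of day 8.

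Acaa1a, the thiolase of straight chains, fell on day 8 in both genotypes, by 1.15 (SE 0.26, adjusted p = 0.0013) in NZB and by 0.87 (SE 0.19, adjusted p = 0.00062) in C57 glands. Acaa1b is a close copy, so the share of reads between these genes is uncertain. Acox3, an oxidase of branched chains, fell by 0.63 (SE 0.18, adjusted p = 0.008) in NZB and by 0.35 (SE 0.13, adjusted p = 0.033) in C57 glands of day 8. Eci2, another isomerase of unsaturated chains, fell in C57 glands on days 8, 14 and 21, by 0.59, 0.97 and 0.89, of which the first missed the threshold under median-of-ratios scaling (-0.31, adjusted p = 0.22). In NZB glands it was at -0.39 and -0.04 on days 8 and 14, and it rose by 0.97 (SE 0.27, adjusted p = 0.01) on day 21, a call that was lost without NZB non-lactating mouse 2. Amacr, the racemase that readies branched chains, and Acot8, a thioesterase that ends the shortening, passed the test in none of the 6 comparisons. Their group means were 5.19 ± 1.15 to 8.22 ± 3.02 and 5.75 ± 0.916 to 9.86 ± 1.83 non-milk CPM.

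Both alpha oxidation members fell. Phyh, the hydroxylase that opens the breakdown of phytanic acid, was second only to Abcd2 among the members' decreases on day 8. NZB glands held 112, 122 and 64.9 non-milk CPM in non-lactating mice, 12.3, 9.25 and 12.5 on day 8, 17.9, 14.9 and 17.1 on day 14, and 55.0, 33.6 and 37.4 on day 21. C57 glands held 169, 139.9 and 169 in non-lactating mice, 9.13, 10.1 and 6.50 on day 8, 22.9, 11.3 and 12.9 on day 14, and 14.3, 11.0 and 16.1 on day 21. No lactating gland reached a non-lactating gland of its genotype. Phyh fell by 2.98 (SE 0.31, adjusted p = 8.9e-08) in NZB and by 4.08 (SE 0.23, adjusted p = 1.4e-12) in C57 glands of day 8, which is 7.92-fold and 16.9-fold lower than in non-lactating glands. Hacl1, the lyase that splits the next intermediate, was at 13.3, 15.4 and 12.8 on NZB day 8 against 44.1, 41.2 and 37.6 in NZB non-lactating mice. On C57 day 8 it was at 8.61, 8.76 and 13.3 against 37.0, 28.8 and 37.3 in C57 non-lactating mice. It fell by 1.50 (SE 0.30, adjusted p = 0.00033) in NZB and by 1.67 (SE 0.22, adjusted p = 9.5e-07) in C57 glands. Hacl1 shares its locus and strand with the gene model Gm49387.

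The 3 ether lipid members went different ways. Gnpat, the acyltransferase of the opening step, was at 53.7, 59.4 and 56.6 non-milk CPM on NZB day 8 against 191, 178 and 126 in NZB non-lactating mice. On C57 day 8 it was at 45.9, 41.6 and 49.9 against 157, 103 and 140.3 in C57 non-lactating mice. Gnpat fell in all 6 comparisons, by 1.51 on day 8 in both genotypes (SE 0.19, adjusted p = 2.2e-06 in NZB and SE 0.14, adjusted p = 8.8e-09 in C57 glands). Far1, which makes the fatty alcohol for the ether bond, rose by 1.39 (SE 0.33, adjusted p = 0.0022) in NZB and by 1.10 (SE 0.25, adjusted p = 0.00071) in C57 glands of day 8, with -0.53 and -0.85 as deposited. The NZB call was lost without NZB non-lactating mouse 2 (adjusted p = 0.05). Its level was 109, 129 and 189 on NZB day 8 against 29.1, 56.1 and 86.9 in NZB non-lactating mice, and 149, 132 and 137 on C57 day 8 against 50.3, 106 and 50.6 in C57 non-lactating mice.

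Agps, the enzyme that forms the ether bond, varied more than any other member. Its SD within groups was 0.65 on the log2 scale, above that of 93.3% of tested genes, where the median was 0.26 over the members and 0.35 over all genes. NZB glands held 101, 252 and 89.0 non-milk CPM in non-lactating mice, 368, 277 and 282 on day 8, 1218, 431 and 1067 on day 14, and 398, 428 and 465 on day 21. C57 glands held 213, 824 and 221 in non-lactating mice, 165, 120.3 and 138 on day 8, 1295, 698 and 632 on day 14, and 1359, 777 and 549 on day 21. The C57 mouse at 824 is mouse 2, whose read files differed in depth. On day 8 over non-lactating Agps fell by 1.27 (SE 0.40, adjusted p = 0.01) in C57 glands, and by 0.63 (SE 0.25, adjusted p = 0.036) without that mouse. In NZB glands it was at 1.21 (SE 0.54, adjusted p = 0.081). Agps rose at day 14 over day 8 in C57 glands, by 2.56 (SE 0.40, adjusted p = 0.0005), with no overlap. The same contrast was 1.43 (SE 0.41, adjusted p = 0.074) in NZB glands. On day 14 over non-lactating it rose by 2.64 (SE 0.55, adjusted p = 0.00062) in NZB and by 1.29 (SE 0.44, adjusted p = 0.021) in C57 glands, where the groups overlap. Without C57 mouse 2 the C57 change was 1.93, and as deposited the changes were 0.80 in NZB and -0.52 in C57 glands.

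**Figure D3:**
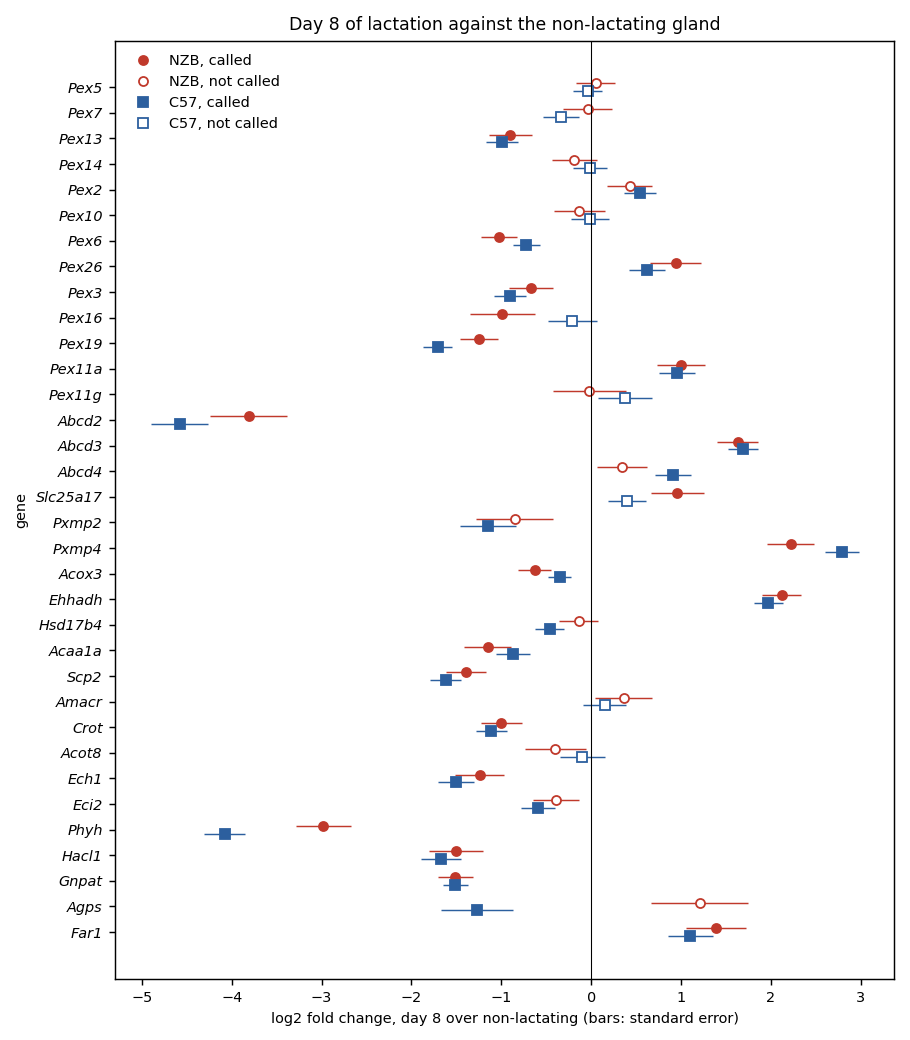
Log2 fold change of day 8 over non-lactating for the 34 members (rows in order of role) on the non-milk scale, with standard errors, for NZB as red circles and C57 as blue squares, filled where the adjusted p was under 0.05. Abcd2 at -3.81 and -4.58 and Phyh at -2.98 and -4.08 lie far to the left, and Pxmp4 at 2.22 and 2.79 farthest to the right. On the CPM as deposited the increases are negative apart from those of Pxmp4 and Ehhadh.

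Per kilobase of annotated exon, the order of the members changed with lactation. The lengths, such as 9421 bp for Agps and 3114 bp for Pxmp4, come from the annotation. Which transcripts the glands made was not measured, so ranks between genes are rough. In C57 non-lactating glands Phyh led with 84.1 non-milk CPM per kb, before Ech1 at 61.8, Scp2 at 56.97 and Abcd2 at 53.7. On C57 day 8 Pxmp4 led with 111.7, before Ehhadh at 45.2 and Abcd3 at 28.0, while Abcd2 was at 2.06 and Phyh at 4.53. In NZB non-lactating glands Scp2 led with 61.3 and Pxmp4 was at 14.8. On NZB day 8 Pxmp4 led with 69.4, before Ehhadh at 51.8. On day 14 Agps led in both genotypes, with 96.07 in NZB and 92.9 in C57 glands, before Pxmp4 at 45.5 and 36.7. On C57 day 21 Agps led again with 95.01. On NZB day 21 Ech1 at 47.3 and Agps at 45.7 led, and Pxmp4 was at 19.7.

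Between lactation days, fewer genes were called in C57 glands after day 14 than before it. At C57 day 14 over day 8, 1 member rose (Agps) and 2 fell (Abcd3 and Pxmp4), where 4.98% of all genes were called. At C57 day 21 over day 14, limma called 0 members and 0% of all genes. At an unadjusted p under 0.05 that contrast had 0 members and 167 genes, and limma voom on the recovered reads also called 0 genes. These 167 are below the share of 0.05 of the 16958 tested genes that a test without any change would give. The test was thus strict in this contrast, and the lack of calls does not show that levels stayed the same. Why so few genes passed was not tested. At NZB day 14 over day 8, 0 members were called (1.51% of all genes), with 6 at an unadjusted p under 0.05 and 0 called by limma voom.

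NZB glands differed on day 21, when 10 members rose and 3 fell over day 14, where 19.0% of all genes rose and 7.10% fell. The 10 that rose were Abcd2, Phyh, Eci2, Ech1, Pex19, Hacl1, Pex13, Scp2, Crot and Gnpat. Of these, 9 had fallen on both days 8 and 14 in NZB glands, and the tenth, Eci2, had not passed the test there. The 3 that fell were Ehhadh, Pxmp4 and Abcd4, and of these Ehhadh and Pxmp4 had risen on both earlier days. The NZB day 14 mice serve in both day 14 over non-lactating and day 21 over day 14, so their spread alone favours opposite directions. How many of all genes turned in this way was not counted. Abcd2 was at 139.7, 45.0 and 59.5 non-milk CPM on NZB day 21 against 19.6, 16.8 and 16.0 on NZB day 14, and rose by 1.99 (SE 0.34, adjusted p = 0.00018). Phyh, at 55.0, 33.6 and 37.4 against 17.9, 14.9 and 17.1, rose by 1.26 (SE 0.24, adjusted p = 0.00058). Eci2, at 92.0, 111 and 123 against 43.0, 49.1 and 71.1, rose by 1.01 (SE 0.20, adjusted p = 0.001). Ech1 rose by 0.91 and Hacl1 by 0.76, and both missed the threshold under median-of-ratios scaling, at 0.67 (adjusted p = 0.11) and 0.52 (adjusted p = 0.13). Of the 10 that rose, only Abcd2, Phyh, Eci2 and Pex19 kept the call under that scaling, where more members fell than rose. The median change of the members was -0.19 there, against 0.05 on the non-milk scale. The Hacl1 call was also lost without mouse 1 or 2 of NZB day 14 or of NZB day 21 (adjusted p = 0.052 to 0.078).

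Among the 3 that fell, Ehhadh was at 51.4, 39.7 and 47.9 non-milk CPM on NZB day 21 against 109, 126 and 84.8 on NZB day 14. Pxmp4 was at 65.2, 62.8 and 55.8 against 102, 184 and 138. No mouse of day 21 reached a mouse of day 14 for either gene. Ehhadh fell by 1.17 (SE 0.17, adjusted p = 4.5e-05) and Pxmp4 by 1.16 (SE 0.20, adjusted p = 0.00023) on the non-milk scale, while on the CPM as deposited they were 0.25 and 0.27. Abcd4 fell by 0.66 (SE 0.21, adjusted p = 0.026), with 0.64 as deposited. That call was lost with 9 milk genes removed (adjusted p = 0.083) and without NZB day 14 mouse 1 or 2 or NZB day 21 mouse 2 or 3 (0.063 to 0.076). Of 16 luminal markers 4 rose and 4 fell between these days (median 0.43). Krt8 rose by 1.85 and Krt18 by 1.93, Slc34a2 fell by 6.35 and Atp2b2 by 6.01, and Elf5 was at -0.70 (adjusted p = 0.05). Their sum over the list was 2842 to 3347 on NZB day 21 and 8728 to 15389 on NZB day 14.

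Of 20 fat cell markers, 15 rose and 3 fell at NZB day 21 over day 14, with a median of 1.41. Their sum was 4373 to 13251 on NZB day 21 and 6148 to 8039 on NZB day 14, since abundant members such as Cd36 and Lpl fell. Adipoq was at 345.1, 67.6 and 88.0 in NZB mice 1, 2 and 3 of day 21, and Abcd2 was highest in mouse 1 as well. Fibroblast markers rose for 8 of 10 and macrophage markers for 8 of 10. Under median-of-ratios scaling 7 fat cell, 3 fibroblast and 4 macrophage markers rose. The part of these cells in the changes of the peroxisome genes was not tested.

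Peroxisome genes were also compared between NZB and C57 mice of the same stage. In non-lactating glands 0 members were called (2.34% of all genes), on day 8 also 0 (0.136%) and on day 14 also 0 (0.0413%). At an unadjusted p under 0.05 there were 3 members at each of these stages, and limma voom called 0 members at each. On day 21, 7 members were higher and 3 lower in NZB glands, where 17.2% of all genes were higher and 5.70% lower, so at every stage the members' share of calls lay near that of all genes. Without C57 day 21 mouse 2 the counts were 5 and 2, and without C57 day 21 mouse 1 they were 13 and 4. Median-of-ratios scaling left 3 higher.

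The largest difference was in Abcd2, at 139.7, 45.0 and 59.5 non-milk CPM in NZB mice of day 21 against 24.3, 11.4 and 9.98 in C57 mice of day 21. It was higher by 2.27 (SE 0.37, adjusted p = 0.00013), a 4.83-fold difference. Phyh was at 55.0, 33.6 and 37.4 in NZB against 14.3, 11.0 and 16.1 in C57 mice, and higher by 1.52 (SE 0.26, adjusted p = 0.00024). Eci2 was at 92.0, 111 and 123 in NZB against 39.0, 34.3 and 38.9 in C57 mice, and higher by 1.51 (SE 0.22, adjusted p = 4.7e-05). Ech1 was higher by 1.08, Pex13 by 0.91, Pex19 by 0.72 and Gnpat by 0.51, and for the first 3 of these the adjusted p under median-of-ratios scaling was 0.081, 0.07 and 0.14. The Pex13 call was also lost without C57 day 21 mouse 2 (adjusted p = 0.067). In the other direction Ehhadh was at 51.4, 39.7 and 47.9 in NZB against 84.8, 112 and 125 in C57 mice. Ehhadh was lower by 1.19 (SE 0.19, adjusted p = 0.00011), Pxmp4 by 0.91 (SE 0.22, adjusted p = 0.0042) and Abcd4 by 0.82 (SE 0.23, adjusted p = 0.014), while on the CPM as deposited they were 0.19, 0.47 and 0.47. The Abcd4 call was lost without C57 day 21 mouse 2 (adjusted p = 0.12) or mouse 3 (0.082). Fat cell markers differed in the same contrast, with 14 of 20 higher and 3 lower in NZB glands (median 1.63). So did 8 of 10 fibroblast and 6 of 10 macrophage markers, all higher, and luminal markers, with 7 of 16 higher and 4 lower. Under median-of-ratios scaling 8 fat cell, 3 fibroblast and 2 macrophage markers were higher, and 4 luminal markers were higher and 5 lower. Their part in the peroxisome differences was not tested.

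The difference between the genotypes in the change of day 21 over day 14 was tested itself. It passed for 4 members, where 6.91% of all genes passed. Abcd2 differed by 2.12 (SE 0.50, adjusted p = 0.013) and Phyh by 1.38 (SE 0.36, adjusted p = 0.021), being 1.99 and 1.26 in NZB glands and -0.13 and -0.13 in C57 glands. Pxmp4 differed by -1.20 (SE 0.30, adjusted p = 0.018) and Ehhadh by -1.16 (SE 0.26, adjusted p = 0.0086), being -1.16 and -1.17 in NZB glands and 0.04 and -0.01 in C57 glands. The calls of Abcd2 and Phyh were lost under median-of-ratios scaling (adjusted p = 0.055 and 0.11), with the 4 compared groups alone (0.051 and 0.053) and with limma voom (0.085 and 0.068). Without C57 day 21 mouse 2, 0 members were higher and 1 lower in this test, Pxmp4, and the differences of Pxmp4 and Ehhadh were 0.24 and 0.27 on the CPM as deposited. Other single mice also decided a call: Abcd2 missed it without C57 day 21 mouse 3 (adjusted p = 0.059), Phyh without C57 day 14 mouse 1 (0.073) or NZB day 14 mouse 2 (0.068), and Pxmp4 without C57 day 21 mouse 3 (0.06) or NZB day 14 mouse 2 (0.068). The other 30 members did not pass, Eci2 and Ech1 among them at 0.93 (adjusted p = 0.066) and 0.94 (adjusted p = 0.076).

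**Figure D4:**
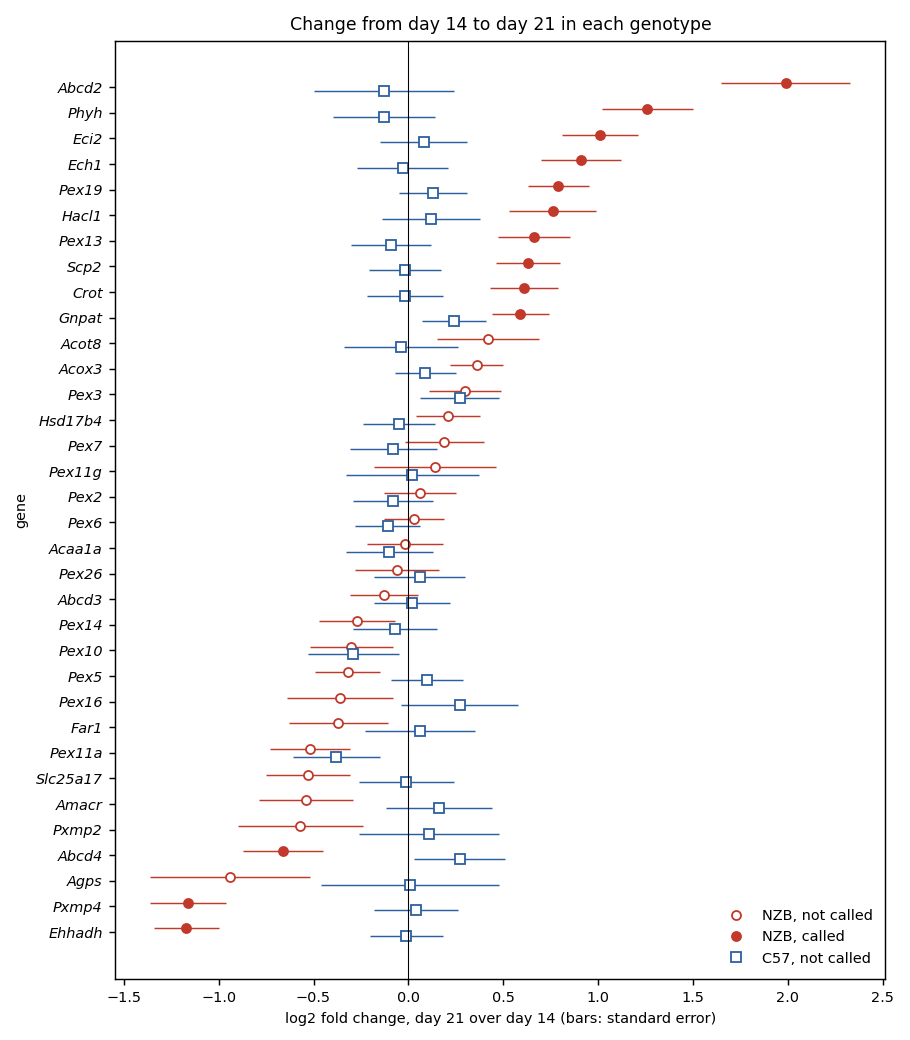
Log2 fold change of day 21 over day 14 for the 34 members on the non-milk scale, with standard errors, for NZB as red circles (filled where the adjusted p was under 0.05) and C57 as blue squares, none of which was called. The NZB points run from -1.17 for Ehhadh to 1.99 for Abcd2, and the C57 points lie close to 0. On the CPM as deposited the NZB decreases of Ehhadh, Pxmp4 and Abcd4 are increases.

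A wider list of 58 other peroxisomal genes, of which 51 passed the filter on low values, was set beside the members. On day 8, 8 rose and 15 fell in NZB glands, where 12.4% of all genes rose and 25.0% fell, and 10 rose and 20 fell in C57 glands, where 14.9% rose and 33.7% fell. Idh1, which makes NADPH in the cytosol and in peroxisomes, fell by 2.30 (SE 0.30, adjusted p = 2.6e-06) in NZB and by 3.11 (SE 0.22, adjusted p = 1e-10) in C57 glands of day 8. Acot6, of a family of acyl-CoA thioesterases, rose by 4.29 (SE 0.49, adjusted p = 3.7e-07) in NZB and by 3.98 (SE 0.36, adjusted p = 3.7e-09) in C57 glands. It was at 203, 71.6 and 159.7 non-milk CPM on NZB day 8 against 6.98, 6.97 and 4.04 in NZB non-lactating mice. Acox2, the oxidase for bile acid intermediates, rose by 2.87 on NZB day 14 and by 3.17 on C57 day 14, and Acaa1b fell by 2.60 and 2.78. Acox2 was at only 0.87 to 1.75 non-milk CPM in non-lactating glands, and Acaa1b at 0 to 0.85 on day 14. The size of these changes therefore depends on the 1 CPM added before the log. Tmem189, the desaturase that finishes plasmalogens, rose by 1.33 on C57 day 8, with -0.59 as deposited. At NZB day 21 over day 14, 7 of the 51 rose and 5 fell (19.0% and 7.10% of all genes). Idh1 rose by 1.97 (SE 0.23, adjusted p = 3.2e-06), at 170.7, 101.3 and 123.6 on NZB day 21 against 37.1, 23.4 and 37.9 on NZB day 14, and Tmem189 fell by 0.96 (SE 0.16, adjusted p = 0.00016), with 0.46 as deposited. Both also passed the test of the difference between genotypes, at 1.92 (adjusted p = 0.0021) and -0.97 (adjusted p = 0.016, with 0.45 as deposited).

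Of the 34 members, 22 overlap another annotated gene on GRCm38, 8 of them a protein-coding gene. Strand use in counting is not given in the sources used here, so reads of overlapping genes may be shared.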

How the data were processed

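Messenger RNA of 24 inguinal mammary glands was measured, 3 mice in each of 8 groups given by genotype and lactation stage in the titles. The authors deposited 1 table of log10 values, read as log10(CPM + 1) because each of its 48 columns sums to the CPM total once the transform is undone. Builds GRCm38 and mm10 are named in the submitters' processing notes; aligner, counting tool and strand setting are not stated there or in the labels. Whole reads were recovered in 100% of low values (tolerance 0.05), which gives the depth of 7.03 to 24.25 M reads (M, 1000000) per mouse. The 2 columns of a mouse, named after its read files, were averaged in CPM and counted as 1 replicate. No column was left unmapped, and 27 symbols turned into dates were kept in the totals and not named.

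After removal of 23 milk protein genes the rest was rescaled to the same total. The 16958 genes above 1 CPM in at least 3 mice were tested with limma 3.58.1 in R 4.3.3 (lmFit with sample weights by group, contrasts.fit, eBayes with a variance trend) on log2(CPM + 1). The fit held 24 mice, 8 group means and 16 residual degrees of freedom; each of the 15 comparisons was tested on 2 sides and its p-values adjusted by Benjamini-Hochberg over all genes, and 0.05 was the limit for a call. Tables and plots were made with Python 3.11.15, pandas 2.3.3 and matplotlib 3.10.9. The code was tested on data simulated for C57 day 8 and NZB day 8 over non-lactating and for NZB over C57 on day 21. With sample weights, 6.5%, 7.3% and 9.9% of the calls were false there, above the limit of 0.05. Of the simulated 2-fold changes, 59%, 21% and 37% were recovered. The titles do not say that replicate numbers pair mice, and the main fit did not pair them. Correlations of deviations from the group means between same-numbered mice ran from -0.40 to 0.47 over 42 pairs, with 5 above 0.1. For C57 days 14 and 21 they were 0.47, 0.40 and 0.06 for mice 1, 2 and 3. What these mice share was not tested.

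The members, the other peroxisomal genes and the marker lists were chosen with earlier results of these data known. Values per mouse were eligible for up to 6 members in each direction and comparison, those with the largest change among called members without overlap, and up to 4 other peroxisomal genes per comparison with the smallest adjusted p. Values per mouse given outside that rule, those of Pex13, Pex6, Pex26, Pex2, Pex16 and Ech1 among them, were chosen after they were seen, as was the naming of Cidea, Cd36, Lpl, Krt8, Krt18, Slc34a2 and Atp2b2. Alternatives were the CPM as deposited, 9 milk protein genes in place of 23, median-of-ratios scaling, a pseudocount of 0.25, no filter and no weights. Others were the compared groups alone, the second read file alone, limma voom, a replicate block, and leaving out each mouse or both lymphocyte-high mice. The last keeps only mouse 1 in the NZB non-lactating group, so no counts or p-values are given from it.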

Additional observations from a re-analysis of the deposited data

Results flagged for a closer look

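The change of day 21 over day 14 differed between NZB and C57 glands by the test of that difference for 4 of 34 peroxisome genes on the non-milk scale, where 6.91% of all genes passed. Abcd2 differed by 2.12 (SE 0.50, limma adjusted p = 0.013) and Phyh by 1.38 (SE 0.36, adjusted p = 0.021), both with every NZB mouse of day 21 above every NZB mouse of day 14. Pxmp4 differed by -1.20 (SE 0.30, adjusted p = 0.018) and Ehhadh by -1.16 (SE 0.26, adjusted p = 0.0086), both with every NZB mouse of day 21 below every NZB mouse of day 14, although on the CPM as deposited these differences were 0.24 and 0.27. C57 mice of these days overlapped for all 4 genes. The calls of Abcd2 and Phyh were lost under median-of-ratios scaling, with the compared groups alone and with limma voom (adjusted p = 0.051 to 0.11). Without C57 day 21 mouse 2 only the call of Pxmp4 was left.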

How the results depend on the processing

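Of 92 named gene results, all 92 kept their direction and call with a pseudocount of 0.25, with the second read file alone and with a replicate block. The calls were kept by 91 without weights, 89 with limma voom, 89 without the filter, 87 with 9 milk genes removed, 85 under median-of-ratios scaling and 84 with only the compared groups; none of these settings turned a direction. Depth, at 7.03 to 24.25 M reads per mouse, and 3 mice per group limit small differences.

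On the CPM as deposited, where milk transcripts stay in the total, 53 results kept their call, 9 lost it and 30 reversed. Members higher and lower there numbered 0 and 29 on NZB day 8 over non-lactating, 0 and 30 on day 14, and 0 and 11 on day 21, with 1 and 31, 0 and 31, and 0 and 31 in C57 glands. NZB day 21 over day 14 gave 30 and 0, NZB over C57 on day 21 gave 28 and 0, and the difference between genotypes in that change gave 26 and 0. C57 day 14 over day 8 had 1 lower, and NZB day 14 over day 8 had 1 higher. In NZB glands over non-lactating, the reversed values were Abcd3 -0.29, Far1 -0.53, Pex11a -0.87 and Slc25a17 -0.89 on day 8, and Pxmp4 -0.25, Ehhadh -0.25, Far1 -0.54, Abcd3 -0.81 and Slc25a17 -0.89 on day 14. In C57 glands they were Abcd3 -0.27, Far1 -0.85, Pex11a -0.93 and Abcd4 -0.87 on day 8. They were Ehhadh -0.14, Pxmp4 -0.59, Abcd4 -0.85, Abcd3 -1.04 and Pex11a -1.13 on day 14, and Ehhadh -0.16, Pxmp4 -0.55, Abcd4 -0.63 and Abcd3 -1.03 on day 21. For NZB day 21 over day 14 they were Ehhadh 0.25, Pxmp4 0.27 and Abcd4 0.64, for NZB over C57 on day 21 Ehhadh 0.19, Pxmp4 0.47 and Abcd4 0.47, and for the difference in change Pxmp4 0.24 and Ehhadh 0.27.

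With 9 milk genes removed, 3 members were higher on C57 day 14 over non-lactating, 13 in NZB over C57 on day 21 and 7 in the difference in change. Median-of-ratios scaling gave 8 lower on NZB day 14 over non-lactating, 4 higher and 7 lower at NZB day 21 over day 14, 3 higher in NZB over C57 on day 21 and 0 higher in the difference in change. NZB day 21 over non-lactating had 2 higher without the filter, and 2 higher and 3 lower with only the compared groups. With only those groups, NZB over C57 on day 8 had 1 higher and the difference in change 0 higher, as it had with limma voom. The replicate block gave 2 higher at C57 day 14 over day 8 and changed no named call. Apart from deposited CPM, the cause of these moves was not tested.

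Leaving out 1 mouse at a time, NZB glands over non-lactating had 3 to 7 members higher on day 8, 4 to 8 on day 14 and 0 to 6 on day 21. Lower members numbered 8 to 16 (day 8), 7 to 15 (day 14) and 0 to 10 (day 21). The lowest of these came without NZB non-lactating mouse 2. NZB over C57 on day 21 had 5 to 13 higher, and the difference in change 0 to 4 higher and 1 to 3 lower, each lowest without C57 day 21 mouse 2 and highest without mouse 1. C57 day 14 over day 8 had 1 to 2 higher, NZB day 14 over day 8 had 0 to 1 higher and 0 to 1 lower, and NZB day 21 over day 14 had 2 to 5 lower.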
